A study of Mus musculus with 2 samples.

Results

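Cell adhesion genes of mesenchyme were examined by RNA-Seq in chondrocytes and dermal fibroblasts: the classical cadherins *Cdh2*, *Cdh3*, *Cdh4*, *Cdh6* and *Cdh11*, the membrane-anchored *Cdh13*, the neural cell adhesion molecule *Ncam1* and the large atypical cadherin *Fat4*. The genes were selected by name, as the entries of the deposited count table whose gene symbol equalled one of these names, and this gave 8 of the 24421 entries. The data comprised 1 library of primary chondrocytes, released by collagenase from the rib cartilage of newborn mice and kept for at most 2 passages. The other library was of primary dermal fibroblasts, which came from dorsal skin, also of newborn mice. The study used dermal fibroblasts as the control cells for chondrocytes. The study did not treat sex as a variable. Genotype, strain, treatment and the number of animals pooled were not given for these libraries in the sources used here. Counts summed to 18788599 in chondrocytes and 17563724 in dermal fibroblasts.

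Classical cadherins hold neighbouring cells together by binding in pairs across the cell boundary, and their cytoplasmic tails bind catenins that link them to actin. In the limb bud, N-cadherin (*Cdh2*) and NCAM (*Ncam1*) are prominent while mesenchymal cells condense ahead of cartilage formation, and both decline as cartilage matures. *Cdh11*, also called OB-cadherin, is a typical cadherin of fibroblasts, osteoblasts and other mesenchymal cells.

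Levels are given as CPM, counts per unit of library size after scaling the sizes by the trimmed mean of M values (TMM). Where genes are compared with each other, CPM per kb of exon is used. Where 2 counts are given for a gene, the chondrocyte count comes first. Counts under 3 were raised to 3 before a fold was taken, which also holds for calls and medians. Where a fold is given for a gene with 1 or 2 counts in a library, the ratio of the scaled counts without this floor stands beside it with its interval. The most abundant genes of a marker list are those with the highest CPM summed over both libraries, without regard to length. As there was 1 library per cell type, no difference has a replicate check and no p-value was computed. Each interval is a 95% counting interval, which covers counting error and nothing else, because reads counted without molecular identifiers need not be separate molecules. A gene was counted as different where the fold was over 2.

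The cell type labels were checked against marker genes. Of 9 chondrocyte markers in the table, 9 were over 2-fold higher in chondrocytes, and their summed level was 105607 CPM in chondrocytes and 23.9 in dermal fibroblasts. The most abundant were *Col2a1* (1447098 counts against 0), *Acan* and *Col11a2*. Of 10 dermal fibroblast markers, 9 were over 2-fold higher in dermal fibroblasts, led by *Col1a1*, *Col3a1* and *Col1a2*, with a summed level of 6197 against 48013 CPM, and *Lum* (3191 against 2881 counts) was the exception. *Col2a1* and *Lect1* were at 0 in dermal fibroblasts. The marker levels matched the label of each library.

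All 8 adhesion genes had more than 3 counts in at least 1 library. Of the 8, 4 were over 2-fold higher in dermal fibroblasts (*Cdh4*, *Cdh6*, *Cdh11* and *Cdh13*), where 15.8% of the 15616 genes with more than 3 counts passed the same threshold. None of the 8 was over 2-fold higher in chondrocytes, where 12.1% of the genes passed. Both shares also apply to the counts of each list below. For 3 of the 4 (*Cdh6*, *Cdh11* and *Cdh13*), the whole counting interval lay beyond 2-fold, against 9.9% of all genes. The median log2 fold of chondrocytes over dermal fibroblasts was -0.93 for the 8 genes and 0.00 for all 15616 genes. The summed level of the 8 genes was 367 CPM in chondrocytes and 947 in dermal fibroblasts, of which *Cdh11* made up 107 and 670.3 CPM. Without *Cdh11*, a sum added after the values were seen, it was 260.2 and 276.5 CPM. In bulk RNA, fewer cells of a type and less RNA per cell cannot be told apart, and this holds for each difference below.

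**Figure D1:**
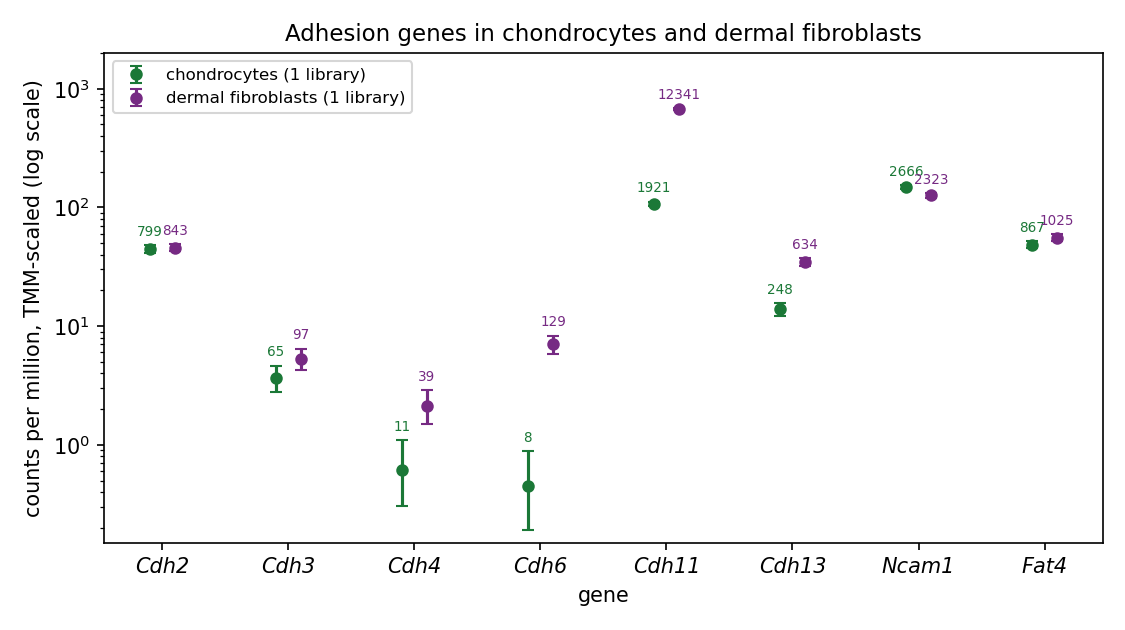
Level of the 8 adhesion genes in chondrocytes (green) and dermal fibroblasts (purple), 1 library each, as TMM-scaled CPM on a log axis. Bars are 95% Poisson counting intervals and the numbers are the deposited counts. *Cdh6* and *Cdh11* show the widest separation, and *Cdh2* overlaps between the libraries (799 and 843 counts).

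*Cdh11* had 1921 chondrocyte counts and 12341 dermal fibroblast counts. This corresponded to 107 and 670.3 CPM, a 6.25-fold higher level in dermal fibroblasts (interval 5.96 to 6.57). Of the 15616 genes, 3.34% had a stronger shift toward dermal fibroblasts. Per kb of exon, *Cdh11* was the most abundant of the 8 genes in both libraries, at 25.4 in chondrocytes and 159 in dermal fibroblasts, so it was lower in chondrocytes without being low there. *Cdh11* lies on chromosome 8 (GRCm38.p6, 102632095 to 102785493). Its annotated span overlaps no other gene.

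Markers of osteoblasts and perichondrium, cells in which *Cdh11* is also well known, moved in both directions. Of 7 genes, 5 passed 2-fold toward chondrocytes and 1, *Postn*, toward dermal fibroblasts (5333 against 39067 counts), with 4 to 5 passing toward chondrocytes across the scalings. Their summed level was 963 CPM in chondrocytes and 2360 in dermal fibroblasts, with *Postn* the most abundant, followed by *Spp1* (9639 against 3413 counts) and *Runx2* (1051 against 778). In chondrocytes alone, *Spp1* had more counts than *Postn*. Without *Postn*, a sum added after the values were seen, the list stood at 666 CPM in chondrocytes and 238 in dermal fibroblasts, the opposite direction. *Bglap*, whose call was lost under another scaling (1.87-fold), was at 0 in dermal fibroblasts and had 6 counts in chondrocytes, and none of the 7 was at 0 in both libraries. Of 8 pericyte and smooth muscle markers, 5 passed 2-fold toward dermal fibroblasts and 1, *Cspg4* (10824 against 2976 counts), toward chondrocytes, with a summed level of 1474 against 3138 CPM. The most abundant was *Acta2* (9075 against 25773 counts), followed by *Pdgfrb* (3719 against 19453) and *Cspg4*, which had the most counts of the list in chondrocytes. None was at 0. The part of these cells in the *Cdh11* difference was not tested.

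*Cdh6* encodes K-cadherin, a type II cadherin like *Cdh11* that is known from developing kidney and neural crest. It had 8 and 129 counts, or 0.446 and 7.01 CPM. This was the largest fold among the 8 genes, at 15.7-fold higher in dermal fibroblasts (interval 7.73 to 37.1), and the width of the interval follows from the 8 counts. Only 1.04% of the 15616 genes had a stronger shift in this direction. The count ratio of *Cdh6* to *Cdh11* was 2.51 times as high in dermal fibroblasts as in chondrocytes (interval 1.23 to 5.95), a comparison that needs no scaling between libraries. Even so, the *Cdh6* level in dermal fibroblasts was 2.66 per kb, far under the 159 of *Cdh11*. Among 11162 genes with at least 100 counts in 1 library, the nearest in scaled log2 level over the 2 libraries were *Apoc1* (8 and 129 counts, the same as *Cdh6*), *Mlxipl* (9 and 140) and *Spock1* (7 and 136).

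Markers of neural crest derivatives were compared with *Cdh6*. Of 7 melanocyte markers, 6 were over 2-fold higher in dermal fibroblasts, with a summed level of 10.1 CPM in chondrocytes and 64.6 in dermal fibroblasts. The most abundant was *Mitf* (150 against 599 counts), while *Dct* (238 counts in dermal fibroblasts) and *Tyrp1* (149) were at 0 in chondrocytes. Of 10 Schwann cell and neural markers, 6 passed 2-fold toward dermal fibroblasts and 2 toward chondrocytes, and the summed level was 195 against 126 CPM. *S100b*, which cartilage also expresses, was the most abundant (2657 counts in chondrocytes and 87 in dermal fibroblasts), followed by *L1cam* and *Erbb3* (197 against 452 counts), which led the list in dermal fibroblasts, and none was at 0. Without *S100b*, a sum added after the values were seen, the list stood at 46.9 CPM in chondrocytes and 121 in dermal fibroblasts, the opposite direction. The Schwann cell cadherin *Cdh19*, a gene of this list, had 68 and 246 counts, a 3.52-fold higher level in dermal fibroblasts (interval 2.68 to 4.68). Nearest to the fold of *Cdh6* in this list, and named with their values known, were the neural crest transcription factors *Foxd3* (10 and 169 counts, 16.5-fold, interval 8.73 to 34.9) and *Sox10* (25 and 310 counts, 12.1-fold, interval 8.03 to 18.9), both higher in dermal fibroblasts. Thus both lists held genes that moved with *Cdh6*, and their part in the *Cdh6* difference was not tested.

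Upstream windows from the RefSeq promoter table (GRCm38.p6) were used for 2 of the 8 genes, *Cdh6* and *Fat4*. No statement is made on entries for the other genes. The 250 bases upstream of the annotated start of *Cdh6*, at chr15:13173676-13173925 on the minus strand, are shown because *Cdh6* had the largest fold. The window lies inside the RefSeq span of the gene (13028699 to 13176407), which extends beyond this start. In the older build NCBIM37 the same bases match chr15:13103431-13103680 once and overlap 0 exons of GENCODE vM1, and 36 bases separate them from the first exon of *Cdh6* there. Capitals mark the E-box sequence CANNTG, which was searched on both strands and reads the same way on each.
Cdh6: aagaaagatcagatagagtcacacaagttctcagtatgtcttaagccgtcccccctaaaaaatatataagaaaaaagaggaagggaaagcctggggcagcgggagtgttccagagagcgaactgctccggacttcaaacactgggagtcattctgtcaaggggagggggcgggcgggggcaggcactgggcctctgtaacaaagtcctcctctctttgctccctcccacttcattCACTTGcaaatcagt
This window held 1 E-box, CACTTG, with its first base at position -15 from the start. The *Fat4* window held 0. At least 1 CANNTG was found in 66.2% of the 32851 upstream windows of this length in the table, so its presence is common. CACCTG, an E-box that SNAIL-type zinc fingers are known to bind, was in neither window and in 17.2% of all windows. ACAAT, a core sequence known for SOX proteins, was in neither and in 27.7% of all. Both strands were included. Other forms of the SOX core were not searched, so the stretch aacaaag in the *Cdh6* window was not counted. The GC content was 51.2% for *Cdh6* and 54.8% for *Fat4*, against a median of 52.4% over all windows. These matches describe the sequence only.

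*Cdh13* encodes T-cadherin, which lacks a cytoplasmic tail and is held in the membrane by a lipid anchor. It had 248 and 634 counts, or 13.8 and 34.4 CPM. It was higher in dermal fibroblasts by 2.49-fold (interval 2.15 to 2.89). The ratio of *Cdh13* to *Cdh2* counts was 2.42 times as high in dermal fibroblasts (interval 2.03 to 2.90), a difference that needs no scaling between libraries. T-cadherin is also known from endothelium. Of 8 endothelial markers, 7 were over 2-fold higher in dermal fibroblasts (6 to 7 across the scalings), with a summed level of 16.1 CPM in chondrocytes and 55.1 in dermal fibroblasts. *Kdr* was the most abundant (70 against 276 counts, level with *Pecam1* in chondrocytes), followed by the endothelial cadherin *Cdh5* (68 against 198 counts, 2.83-fold higher in dermal fibroblasts, interval 2.14 to 3.79) and *Pecam1* (70 against 120 counts). None of the 8 was at 0, and the part of endothelial cells in the *Cdh13* difference was not tested.

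*Cdh4* encodes R-cadherin, a type I cadherin close in sequence to N-cadherin and known from retina, muscle and kidney. It was the least abundant of the 8 genes per kb of exon in dermal fibroblasts, with 11 counts in chondrocytes and 39 in dermal fibroblasts, or 0.614 and 2.12 CPM. The level was 3.45-fold higher in dermal fibroblasts, but its interval (1.73 to 7.47) reached under 2-fold. At this depth the difference in *Cdh4* is thus less certain in size than that of *Cdh11* or *Cdh13*.

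*Cdh3*, which encodes P-cadherin, is best known from the basal epidermis, the hair follicle and melanocytes. It had 65 and 97 counts, or 3.63 and 5.27 CPM, and its fold of 1.45 (interval 1.05 to 2.02) did not pass 2-fold. Of 10 keratinocyte markers, 9 had more than 3 counts in a library and 6 were over 2-fold higher in dermal fibroblasts, with a summed level of 23.2 CPM in chondrocytes and 286.7 in dermal fibroblasts. The most abundant were *Krt14* (17 against 1939 counts), *Krt5* (1 against 1693) and *Dsp* (27 against 722), and none of the 10 was at 0 in both libraries. The ratio of *Krt5* was 1648 without the floor (interval 295 to 65144) and 549-fold with it. In chondrocytes alone, *Itgb4* had the most counts of the list (251 against 443). E-cadherin (*Cdh1*), the epithelial type I cadherin, had 2 and 143 counts, a ratio of 69.6 without the floor (interval 18.9 to 580) and 46.4-fold with it. The fold of *Cdh3* was smaller than those of *Krt14*, *Krt5*, *Dsp* and *Cdh1*, while *Krt10* (1.46-fold), *Trp63* (1.62-fold) and *Itgb4* (1.72-fold) also stayed within 2-fold. The share of its counts that came from epidermal cells was not tested.

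*Cdh2* was nearly level between the libraries. It had 799 and 843 counts, or 44.6 and 45.8 CPM. The fold of chondrocytes over dermal fibroblasts was 0.973 (interval 0.883 to 1.07), and across the scalings tried it ran from 0.886 to 1.06, on both sides of 1. The interval lay within 2-fold in both directions, so a 2-fold difference in *Cdh2* between these libraries lies outside the counting error. *Cdh2* lies on chromosome 18 (16588877 to 16809246 in GRCm38.p6).

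*Ncam1*, an immunoglobulin family molecule that pairs with itself across cells, was the only gene of the 8 with more scaled counts in chondrocytes under TMM scaling. It had 2666 and 2323 counts, or 149 and 126 CPM. The level was 1.18-fold higher in chondrocytes (interval 1.11 to 1.25) and between 1.07-fold and 1.28-fold across the scalings, well short of 2-fold. Counts per gene do not separate the splice forms of *Ncam1*. The genes with the nearest levels were *Scaf11* (2658 and 2341 counts), *Strap* (2684 and 2283) and *Cope* (2619 and 2303), each about level between the libraries. The span of *Ncam1* (chromosome 9, 49502129 to 49799393) overlaps the long noncoding RNA gene *Gm11149*, which had 4 and 1 counts.

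Skeletal muscle precursors are known to carry N-cadherin, NCAM and M-cadherin (*Cdh15*). Of 14 skeletal muscle markers in the table, 9 were over 2-fold higher in chondrocytes and none was over 2-fold higher in dermal fibroblasts, with 7 to 9 passing across the scalings. The summed level was 2160 CPM in chondrocytes and 1438 in dermal fibroblasts. The most abundant were *Actc1* (7288 against 7970 counts), *Myh3* (7784 against 6497) and *Acta1* (6259 against 4705), with *Myh3* first in chondrocytes, and none was at 0 in either library. *Cdh15*, which is in this list, had 543 and 93 counts, a 6.00-fold higher level in chondrocytes (interval 4.80 to 7.56), against 1.18-fold for *Ncam1*. Of the genes of muscle precursors and myoblasts in this list, *Pax7*, *Myod1* and *Myf5*, named with their values known, differed more than these contractile genes. *Pax7* had 120 and 4 counts, a 30.8-fold higher level in chondrocytes (interval 11.7 to 115). *Myod1* had 2328 and 496 counts, a 4.82-fold higher level (interval 4.37 to 5.32). *Myf5* had 36 and 1 counts, a ratio of 37.0 without the floor (interval 6.23 to 1500.5) and 12.3-fold with it. Such differences were not confined to these genes. *Chrna1* and *Musk* of this list, also named with their values known, were higher in chondrocytes too. *Chrna1* had 2279 and 567 counts (4.13-fold, interval 3.76 to 4.53) and *Musk* had 184 and 51 (3.71-fold, interval 2.70 to 5.16). *Myog*, of the same list, had 3526 and 1728 counts, a 2.10-fold higher level in chondrocytes that fell to 1.91-fold under another scaling. This was under the folds of the muscle genes *Ttn* (2.13) and *Des* (2.35). *Ckm* (120 and 176 counts) was 1.43-fold higher in dermal fibroblasts, within 2-fold. The part of muscle cells in the *Cdh2* and *Ncam1* levels was not tested.

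*Fat4* encodes a giant cadherin that binds the cadherin Dachsous (*Dchs1*) on the next cell and acts in planar cell polarity and tissue growth. It had 867 and 1025 counts, or 48.4 and 55.7 CPM. The level was higher in dermal fibroblasts by 1.15-fold (interval 1.05 to 1.26), which is within 2-fold. Its partner *Dchs1* had 738 and 1268 counts and was higher in dermal fibroblasts by 1.67-fold (interval 1.53 to 1.83). The count ratio of *Fat4* to *Dchs1* was 1.17 in chondrocytes (interval 1.06 to 1.30) and 0.808 in dermal fibroblasts (interval 0.744 to 0.878). Per kb of exon these ratios were 0.758 and 0.521, so *Dchs1* was above *Fat4* on that scale in both libraries. The Golgi kinase *Fjx1*, which tunes this pairing, had 174 and 89 counts, and its 2.01-fold higher level in chondrocytes (interval 1.55 to 2.62) fell to 1.83-fold under another scaling.

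Of the other Fat cadherins, only *Fat2* passed 2-fold under TMM scaling, toward dermal fibroblasts. *Fat1* had 11163 and 6132 counts and was 1.87-fold higher in chondrocytes (interval 1.81 to 1.93). The count ratio of *Fat4* to *Fat1* was 2.15 times as high in dermal fibroblasts as in chondrocytes (interval 1.95 to 2.37). *Fat2* had 0 and 16 counts. With the floor of 3 counts, which a count of 0 allows, its fold toward dermal fibroblasts was 5.19. The counting interval of *Fat2* starts at 3.75 and has no upper end. For *Fat3* (30 and 53 counts) the fold in the same direction was 1.72 (interval 1.08 to 2.79). Over the 6 genes of the Fat and Dachsous pathway in the table, 1 was over 2-fold higher in each direction and the median log2 fold was -0.47. Of all genes, 12.1% passed toward chondrocytes and 15.8% toward dermal fibroblasts. Across the scalings, 0 to 2 of the 6 genes passed in chondrocytes.

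The order of the 8 genes was read per kb of exon. In chondrocytes it was *Cdh11* (25.4), *Ncam1* (14.7), *Cdh2* (5.53), *Fat4* (2.82), *Cdh13* (1.24), *Cdh3* (0.908), *Cdh6* (0.170) and *Cdh4* (0.0850). The counting intervals of *Cdh13* and *Cdh3* overlapped, as did those of *Cdh6* and *Cdh4*, so the order within these pairs is not resolved. In dermal fibroblasts the order was *Cdh11* (159), *Ncam1* (12.5), *Cdh2* (5.68), *Fat4* (3.24), *Cdh13* (3.09), *Cdh6* (2.66), *Cdh3* (1.32) and *Cdh4* (0.293). There the intervals of *Fat4*, *Cdh13* and *Cdh6* overlapped. By point values, the first 5 places were held by the same genes in the same order in both libraries, and *Cdh6* stood above *Cdh3* in dermal fibroblasts and below it in chondrocytes. The exon lengths came from an older annotation, whose *Cdh6* model (2632 bp) ends at the stop codon, so the per kb level of *Cdh6* can be too high relative to the other genes.

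On the genome (GRCm38.p6), 3 of the 8 genes share chromosome 8 with other cadherin genes. *Cdh3* (106510852 to 106556911) lies next to *Cdh1* (106603350 to 106670247), with no annotated protein-coding gene between them, and *Cdh11*, *Cdh5* (104101613 to 104144504), *Cdh13* (118140017 to 119324929) and *Cdh15* (122848374 to 122867397) lie on the same chromosome. These 6 genes of chromosome 8 did not share a direction: *Cdh1*, *Cdh5*, *Cdh11* and *Cdh13* were over 2-fold higher in dermal fibroblasts, *Cdh3* was within 2-fold and *Cdh15* was over 2-fold higher in chondrocytes. *Cdh4* lies on chromosome 2 (179442423 to 179899377) and *Fat4* on chromosome 3 (38884667 to 39011992). The annotated spans of the 8 genes overlapped 0 protein-coding genes.

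The classical cadherins were then compared within each library, as they bind the same catenins and their shares need no scaling between libraries. The 18 genes of types I and II summed to 3803 counts in chondrocytes and 14387 in dermal fibroblasts. *Cdh11* took 50.5% of these counts in chondrocytes (interval 48.9 to 52.1) and 85.8% in dermal fibroblasts (interval 85.2 to 86.3). *Cdh2* took 21.0% in chondrocytes (interval 19.7 to 22.3) and 5.86% in dermal fibroblasts (interval 5.48 to 6.26). Thus *Cdh2*, level as a single gene, made up a larger share of the classical cadherins in chondrocytes, where *Cdh11* was lower. *Cdh15* took 14.3% in chondrocytes (interval 13.2 to 15.4) and 0.646% in dermal fibroblasts (interval 0.522 to 0.791). *Cdh6* took 0.210% (interval 0.0909 to 0.414) and 0.897% (interval 0.749 to 1.06).

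Per kb of exon, which is the scale for comparing these genes with each other, *Cdh11* made up 51.0% of the classical cadherins in chondrocytes and 86.3% in dermal fibroblasts. On this scale *Cdh15* (18.7%) was above *Cdh2* (11.1%) in chondrocytes, while *Cdh2* (3.08%) was above *Cdh15* (0.844%) in dermal fibroblasts. The ratio of *Cdh11* to *Cdh2* per kb was 4.60 in chondrocytes and 28.0 in dermal fibroblasts. This ratio was 6.09 times as high in dermal fibroblasts (interval 5.46 to 6.79). The type I cadherins together made up 31.8% per kb in chondrocytes and 5.72% in dermal fibroblasts. Of the 31.8%, 18.7% was *Cdh15*, the cadherin of muscle precursors. *Cdh15* is itself among the 9 of 14 skeletal muscle markers that were over 2-fold higher in chondrocytes. Without *Cdh15*, shares added after the values were seen, type I cadherins made up 16.2% per kb in chondrocytes and 4.92% in dermal fibroblasts, *Cdh11* 62.8% and 87.1%, and *Cdh2* 13.6% and 3.11%. The part of muscle cells in these shares was not tested.

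**Figure D2:**
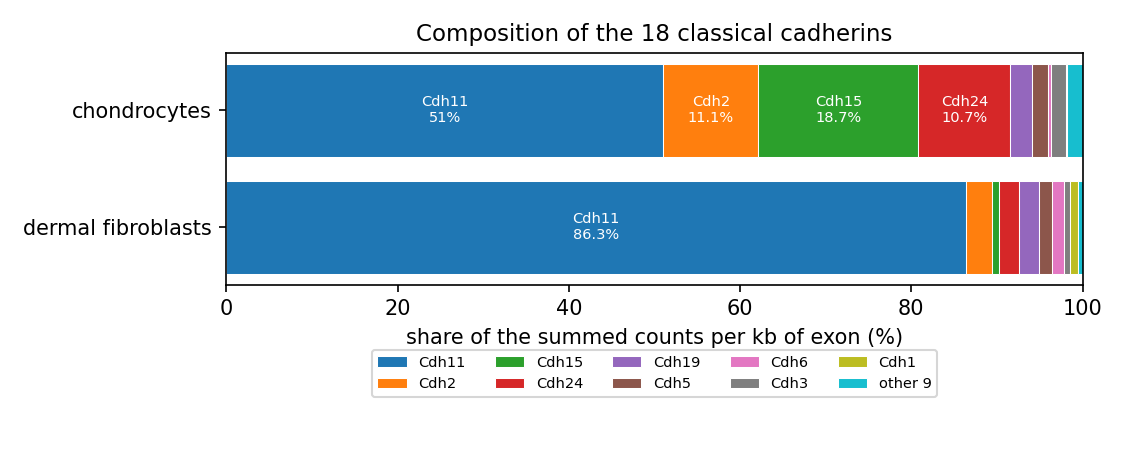
Share of each gene in the summed counts per kb of exon of the 18 classical cadherins (percent, linear axis from 0), 1 library per bar. *Cdh11* fills 51.0% of the chondrocyte bar and 86.3% of the dermal fibroblast bar, and *Cdh2* and *Cdh15* take 11.1% and 18.7% of the chondrocyte bar.

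Over all genes, 12.1% passed 2-fold toward chondrocytes and 15.8% toward dermal fibroblasts. Of the 5 type I cadherins, 1 (*Cdh15*) passed 2-fold toward chondrocytes and 2 (*Cdh1* and *Cdh4*) toward dermal fibroblasts, with a median log2 fold of -0.54. Of the 13 type II cadherins, 9 had more than 3 counts in a library, of which 2 were over 2-fold higher in chondrocytes and 4 in dermal fibroblasts (*Cdh5*, *Cdh6*, *Cdh11* and *Cdh19*), with a median of -0.30. The type II genes over 2-fold in chondrocytes, *Cdh22* (13 against 2 counts) and *Cdh18* (7 against 1), had few counts. With the floor their folds were 4.45 and 2.40, and without it their ratios were 6.68 (interval 1.51 to 60.9) and 7.19 (interval 0.924 to 324). *Cdh10* (30 and 38 counts) and *Cdh8* (4 and 5) were within 2-fold. *Cdh24* had 261 and 210 counts, within 2-fold. *Cdh7* and *Cdh9* were at 0 in both libraries, which allows up to 3 counts each.

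Catenins couple cadherins to actin. Beta-catenin (*Ctnnb1*) had 16769 and 14654 counts, alpha-catenin (*Ctnna1*) had 5225 and 5329, and p120 catenin (*Ctnnd1*) had 5284 and 5821. Of 10 catenins and junction adaptors with more than 3 counts in a library, none passed 2-fold toward chondrocytes and 2 passed it toward dermal fibroblasts: plakoglobin (*Jup*, 440 against 1009 counts, 2.23-fold, interval 1.99 to 2.50) and vinculin (*Vcl*, 4956 against 11242 counts, 2.21-fold, interval 2.14 to 2.28). Over all 15616 genes these shares were 12.1% and 15.8%. The median log2 fold was -0.05 and ran from -0.18 to 0.08 across the scalings, on both sides of 0. Per kb of exon, *Cdh11* stood at 0.139 of *Ctnnb1* in chondrocytes and at 1.02 of it in dermal fibroblasts. *Cdh2* stood at 0.0301 and 0.0364, so the cadherin that shifted most against beta-catenin of these was *Cdh11*.

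Desmosomal cadherins, which hold epithelia together, mostly passed 2-fold toward dermal fibroblasts. Of 9 genes, 7 had more than 3 counts in a library, of which 6 were over 2-fold higher in dermal fibroblasts and 1, *Dsg2* (24 against 11 counts), in chondrocytes. Over all genes these shares were 15.8% and 12.1%. The median log2 fold was -3.66 with counts of 0 to 2 set to the floor, and the floor sets its size, since it was -1.92 with a floor of 10 counts and -5.25 with a floor of 1. *Dsg3* had 0 and 105 counts and was 34.1-fold higher in dermal fibroblasts with the floor of 3 counts. Its counting interval starts at 27.2 and has no upper end. *Dsc3* had 1 and 99 counts, a ratio of 96.4 without the floor (interval 16.9 to 3845) and 32.1-fold with it. The summed level of the list was 2.18 CPM in chondrocytes and 19.1 in dermal fibroblasts. The keratinocyte markers moved with it, with 6 of 10 over 2-fold higher in dermal fibroblasts and a summed level of 23.2 against 286.7 CPM, and the part of epidermal cells in the desmosomal difference was not tested.

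**Figure D3:**
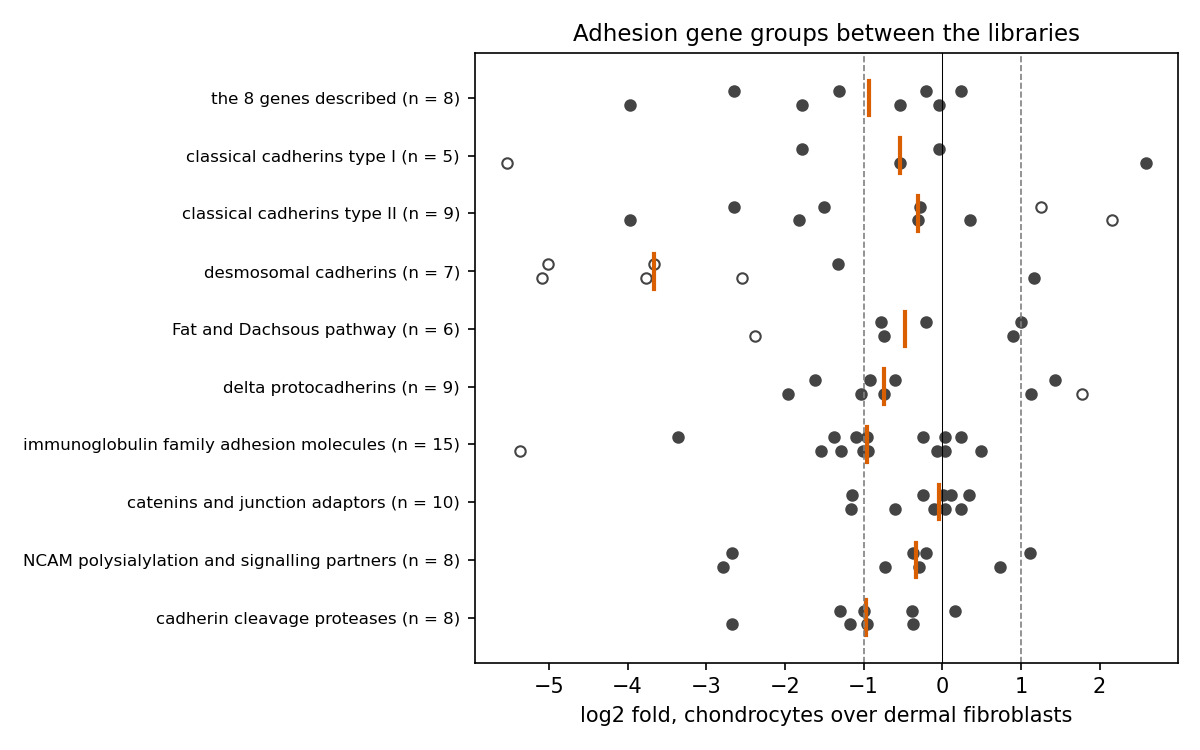
Log2 fold of chondrocytes over dermal fibroblasts (horizontal axis) for the genes of each adhesion group with more than 3 counts in a library, 1 point per gene and n in the labels; the 8 genes described are at the top. Open points have 3 counts or fewer in 1 library and were set to the floor, orange bars are medians, and dashed lines mark 2-fold. The median of the 8 genes is -0.93 and that of the catenins -0.05, a median that changes sign across the scalings; that of the desmosomal cadherins moves with the floor.

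The relatives of *Ncam1* were compared next. Of 15 immunoglobulin family adhesion molecules, none passed 2-fold toward chondrocytes and 7 passed it toward dermal fibroblasts (5 to 9 across the scalings). Of all genes, 12.1% and 15.8% passed, and the median log2 fold of the 15 was -0.96. Per kb of exon, *Ncam1* had the highest level of them in chondrocytes (14.7), whereas in dermal fibroblasts *Mcam* (19.5), *Icam1* (18.7) and *Vcam1* (16.8) stood above *Ncam1* (12.5). The synaptic-type molecule *Cadm3* had 82 and 862 counts, a 10.2-fold higher level in dermal fibroblasts (interval 8.15 to 13). *Cadm2* had 2 and 127 counts, a ratio of 61.8 without the floor (interval 16.8 to 516) and 41.2-fold with it. *Mcam*, a molecule of pericytes and endothelium, had 482 and 1204 counts and was higher in dermal fibroblasts by 2.43-fold (interval 2.19 to 2.71). *Vcam1* had 765 and 1525 counts (1.94-fold) and *Icam1* had 423 and 873 (2.01-fold), on either side of the threshold. *Ncam1* was thus among the 8 genes of its group that stayed within 2-fold.

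Genes that modify NCAM or signal with it formed a further list. Of 8 genes, 1 passed 2-fold toward chondrocytes and 2 toward dermal fibroblasts, against 12.1% and 15.8% of all genes. The median log2 fold was -0.33. The gene higher in chondrocytes, the polysialyltransferase *St8sia2*, adds polysialic acid to NCAM and was singled out after its values were seen. It had 543 and 258 counts, a 2.16-fold higher level (interval 1.86 to 2.52) that fell to 1.97-fold under another scaling. The GDNF co-receptor *Gfra1*, which can pair with NCAM, had 218 and 1428 counts and was higher in dermal fibroblasts by 6.38-fold (interval 5.53 to 7.39). *Gap43*, a growth cone protein, had 44 and 312 counts and was 6.90-fold higher (interval 5.02 to 9.70). The receptor *Fgfr1* had 3740 and 6381 counts and the kinase *Fyn* 1519 and 1922, both within 2-fold, as were the prion protein gene *Prnp* (6324 and 7509) and the phosphatase *Ptpra* (1376 and 1821).

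Proteases that cut cadherins were also compared, since cleavage removes cadherin from the surface. Of 8, none passed 2-fold toward chondrocytes and 3 passed it toward dermal fibroblasts (3 to 5 across the scalings), against 12.1% and 15.8% of all genes. The median log2 fold of the 8 was -0.97. *Mmp14*, a membrane-bound metalloproteinase, had 4317 and 28140 counts, a 6.35-fold higher level (interval 6.15 to 6.55) close to the 6.25-fold of *Cdh11*. *Adam9* had 3135 and 7960 counts and was 2.47-fold higher (interval 2.37 to 2.58). The remaining gene, *Adam15*, was 2.26-fold higher (interval 2.09 to 2.44) and is named here with its values already known. *Ncstn*, a subunit of gamma-secretase, had 2365 and 3155 counts, within 2-fold. *Adam10*, the main protease known to shed N-cadherin, had 1490 and 2970 counts and lay just within 2-fold at 1.94-fold (interval 1.82 to 2.07). RNA counts give no measure of cadherin protein or of its cleavage.

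Of 9 delta protocadherins, cadherin relatives that do not bind the classical catenins, 3 were over 2-fold higher in chondrocytes and 3 in dermal fibroblasts. Across the scalings these counts were 2 to 3 and 2 to 4, and of all genes 12.1% and 15.8% passed. The median log2 fold of the 9 was -0.74. *Pcdh18* had 358 and 1429 counts and was higher in dermal fibroblasts by 3.89-fold (interval 3.46 to 4.38). *Pcdh7* had 804 and 1253 counts, *Pcdh19* had 408 and 861, and *Pcdh1* had 112 and 353. The genes higher in chondrocytes are named with their values already known. *Pcdh9* had 174 and 66 counts, a 2.71-fold higher level (interval 2.03 to 3.65). *Pcdh11x* had 141 and 66 counts, a 2.19-fold higher level (interval 1.63 to 2.99) that no longer passed 2-fold when total counts set the scale. *Pcdh8* had 10 and 0 counts and was 3.42-fold higher in chondrocytes with the floor of 3 counts. Its counting interval starts at 2.30 and has no upper end.

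Of 6 macrophage markers, for cells that either tissue can hold, 1 passed 2-fold toward dermal fibroblasts, *Csf1r* (160 against 430 counts), with a summed level of 108 CPM in chondrocytes and 172 in dermal fibroblasts. *Lyz2* was the most abundant (1046 against 1639 counts), followed by *Cd68* (423 against 600), and none was at 0. Their part in the adhesion gene levels was not tested.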

How the data were processed

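RNA-Seq of 1 library of chondrocytes and 1 library of dermal fibroblasts was analysed. The mRNA libraries kept strand, and reads were single-end. According to the submitters' processing notes and the methods, bases were called with CASAVA 1.8.2 and reads were mapped to mm10 with TopHat2 2.0.13, Bowtie2 2.2.3 and SAMtools 0.1.19. The authors deposited a raw read count for each gene symbol, without normalization. The counting program, annotation and strand setting were not given in the sources used here. Values scaled by the authors were not used.

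From these counts, TMM factors were computed with edgeR 4.0.16 in R 4.3.3. Folds used a floor of 3 counts and 95% Clopper-Pearson conditional intervals, in Python 3.11.15 with numpy 2.4.6, scipy 1.17.1, pandas 2.3.3 and matplotlib 3.10.9. Genes with more than 3 counts in a library were compared (15616), and a difference was a fold over 2. Levels have Poisson intervals, shares exact binomial intervals, and ratios of count ratios exact conditional intervals. The alternatives were total counts, DESeq2 1.42.0 median-of-ratios factors, the upper quartile, total counts less those of the 10 genes highest in either library, and *Actb*, a floor of 1 or 10 counts, pseudocount 1, genes with at least 10 counts or no filter, a fold over 4, the whole interval beyond 2-fold, and shares per kb. The calculations were tested on simulated data.

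Genes were named by this rule: the 8 genes; those of the cadherin, Fat and catenin lists with more than 3 counts could be named; of the other adhesion lists the 4 most abundant and any with a fold over 4; of the marker lists the 3 most abundant; and the 3 genes nearest in level to the members with the highest and the lowest fold. *Lum*, *Lect1*, *Bglap*, *Krt10*, *Trp63*, *Itgb4*, *Foxd3*, *Sox10*, *Pax7*, *Myod1*, *Myf5*, *Chrna1*, *Musk*, *Myog*, *Ttn*, *Des*, *Ckm*, *Adam15*, *St8sia2*, *Pcdh8*, *Pcdh9* and *Pcdh11x* were named after their values were seen. The members and lists were chosen with earlier results of these data known. Of 172 listed genes, 168 were in the table. Exon lengths were those of GENCODE vM1 (NCBIM37), used as lengths only, and covered 91.5% of the genes compared. Positions and upstream sequences were taken from RefSeq tables (GRCm38.p6).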

Additional observations from a re-analysis of the deposited data

How the results depend on the processing

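No paired analysis was possible because only 1 library represented each cell type. For the same reason, leaving out a library could not be run. Relative to TMM, total counts shifted all log2 folds by -0.14 and *Actb* by 0.12. Across the scalings, 4 of the 8 genes passed 2-fold toward dermal fibroblasts and 0 toward chondrocytes, and their median log2 fold lay between -1.06 and -0.80. Over all genes, 1583 to 2139 passed in chondrocytes and 2258 to 2847 in dermal fibroblasts. With a fold over 4, 2 of the 8 genes (*Cdh6* and *Cdh11*) passed in dermal fibroblasts, beside 713 of all genes in chondrocytes and 929 in dermal fibroblasts, since the threshold is stricter. With the whole interval beyond 2-fold, 1041 of all genes passed in chondrocytes and 1546 in dermal fibroblasts. Of 80 recomputed folds of the 8 genes, 5 left the counting interval of the TMM value, all under total counts or *Actb*, and no gene over 2-fold changed direction. Of 152 recomputed list medians, 13 left the range between the median lower limit and the median upper limit of the single-gene intervals. Per kb of exon, which divides by length, *Cdh11* took 86.3% of the classical cadherins in dermal fibroblasts, *Cdh2* took 11.1% in chondrocytes and 3.08% in dermal fibroblasts, and *Cdh15* took 18.7% and 0.844%. The depth limits *Cdh6* and *Cdh4* most, at 8 and 11 counts in chondrocytes.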

Other observations

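The clustered protocadherins, neuronal recognition molecules encoded in adjoining gene arrays, were listed after the data had been seen. Of 59 genes in the table, 44 had more than 3 counts in a library, of which 19 were over 2-fold higher in dermal fibroblasts and 0 in chondrocytes, against 15.8% and 12.1% of all genes. The 19 became 17 to 23 across the scalings, floors and pseudocount tried. Under TMM scaling 39 of the 44 were higher in dermal fibroblasts, and the median log2 fold was -0.91. The summed level was 205 CPM in chondrocytes and 424 in dermal fibroblasts. The most abundant was *Pcdhgc3*, with 1832 chondrocyte and 4314 dermal fibroblast counts (2.29-fold higher, interval 2.17 to 2.42). Within the gamma array 12 of 22 genes passed 2-fold toward dermal fibroblasts, and within the beta array 6 of 20. Genes of the gamma array share their last exons. How the authors' counting split reads in them was not given in the sources used here, so the values of single genes are uncertain. For the same reason, the 19 and 39 of 44 genes and the 12 of 22 need not be separate differences.

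*Ctnnal1*, which encodes alpha-catulin, a relative of alpha-catenin, was also picked after its values were seen. It had 820 chondrocyte and 110 dermal fibroblast counts, a 7.66-fold higher level in chondrocytes (interval 6.27 to 9.43), whereas *Ctnna1* had 5225 and 5329 counts.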
